A study of Mus musculus with 12 samples.

Results

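The genes described here code for the enzymes that cut, protect and crosslink the extracellular matrix: the matrix metalloproteinases (Mmp), their tissue inhibitors (Timp), the ADAMTS proteases with the ADAMTS-like proteins (Adamts, Adamtsl), and the lysyl oxidases (Lox, Loxl). They were chosen by gene symbol among the protein-coding rows. That rule uses no measured value, but earlier results of these data were known. It gave 56 genes of the 47643 in the table: 23 Mmp, 4 Timp, 24 Adamts or Adamtsl and 5 Lox genes. Bulk poly(A) RNA sequencing was run on 12 pieces of pancreatic tumor, 6 labelled Old tumor and 6 labelled Young tumor for the age class of the host mouse. All 12 carry the same cell line label, KPC4662, a mouse line of pancreatic ductal adenocarcinoma, so the groups differ by host and not by tumor line. The labels used here state no ages in months, no mouse strain, no sex and no site of implantation, and nothing says that each piece is from a different mouse, so a p-value measures the spread between these pieces.

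Matrix metalloproteinases are zinc-dependent endopeptidases, made as inactive precursors, that between them cleave collagens, proteoglycans and many surface proteins. Tissue inhibitors block their active site, ADAMTS proteases process procollagens and proteoglycans, and lysyl oxidases convert lysines of collagen and elastin so that the fibres can crosslink. In pancreatic cancer much of this machinery is known from the fibroblasts of the dense stroma, while some members are made by tumor cells, macrophages or neutrophils. A bulk library cannot tell fewer cells of a type from less RNA per cell.

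Library totals ran from 17754645 counts (Old tumor 6) to 24097599 counts (Old tumor 5). The labelled cell type is epithelial, and 7 epithelial markers (Epcam, Krt8, Krt18, Krt19, Krt7, Cdh1, Muc1) summed to 5179 to 8299 TPM in Old tumor libraries and 5290 to 9101 TPM in Young tumor libraries. TPM is a relative transcript level, corrected for transcript length and library size. The pieces also held RNA of other cells. Fibroblast markers, 10 genes, summed to 578 to 4096 TPM in Old tumor and 622 to 1444 TPM in Young tumor libraries. Old tumor 1 held the highest mean level of the fibroblast, mural, macrophage, endothelial, adipocyte and mesothelial marker lists. Old tumor 4 held the lowest for each of these except the adipocyte list, which was lowest in Young tumor 2. Of 9 acinar markers 8 were below the count filter. The neutrophil list had its highest mean in Young tumor 3, and its 8 genes summed to 48.9 to 172 TPM in Old tumor and 62.0 to 405 TPM in Young tumor libraries. Over the 12 libraries S100a9, S100a8, Csf3r, Cxcr2 and Retnlg averaged 66.8, 40.3, 13.3, 3.55 and 1.78 TPM, and Camp, Ly6g and Mpo 0.51, 0.42 and 0.12 TPM.

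Among the 23 Mmp genes, 10 lie together on chromosome 9 within 427.1 kb (GRCm38, 7272514 to 7699585), in the order Mmp13, Mmp12, Mmp1b, Mmp3, Mmp1a, Mmp10, Mmp8, Mmp27, Mmp20 and Mmp7. The windows of 150 bases before the start sites of 4 of these neighbours are shown. They were picked because they hold a motif and had estimates below 0 in Old against Young tumors, described further on. None of the 4 estimates passed. As the estimates entered the choice, the windows cannot tell whether the motif goes with a difference between ages. Mmp12 also holds the motif in a window (chr9:7347224-7347373), but not in the one at the start of the gene (chr9:7344247-7344396). It had a log2 fold change of 0.07. The sequences shown are RefSeq sequences of build GRCm38.p6, 5′ to 3′. Capitals mark the AP-1 motif, TGACTCA or its reverse complement TGAGTCA, the sequence that Fos and Jun proteins bind.
Mmp13, chr9:7272364-7272513, plus strand: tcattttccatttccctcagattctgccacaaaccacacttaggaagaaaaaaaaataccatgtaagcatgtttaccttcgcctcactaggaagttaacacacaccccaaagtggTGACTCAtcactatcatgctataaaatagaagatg
Mmp3, chr9:7445672-7445821, plus strand: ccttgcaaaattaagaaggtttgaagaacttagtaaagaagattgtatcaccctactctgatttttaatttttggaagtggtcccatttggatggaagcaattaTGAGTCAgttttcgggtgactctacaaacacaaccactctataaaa
Mmp10, chr9:7502192-7502341, plus strand: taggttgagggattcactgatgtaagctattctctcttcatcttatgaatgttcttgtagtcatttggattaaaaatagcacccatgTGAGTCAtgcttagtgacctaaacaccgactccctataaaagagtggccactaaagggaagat
Mmp7, chr9:7691940-7692089, plus strand: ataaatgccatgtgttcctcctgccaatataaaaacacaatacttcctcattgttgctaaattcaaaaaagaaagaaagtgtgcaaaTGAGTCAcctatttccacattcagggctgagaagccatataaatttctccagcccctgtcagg
The motif begins 35 bases before the start of Mmp13, 46 before Mmp3, 63 before Mmp10 and 63 before Mmp7. It was searched on both strands, by both spellings, in 32851 windows of the same length, of which 933 (2.84%) held it. Of the 56 genes 37 had a RefSeq window. In the chromosome 9 group 7 of 10 genes had the motif in a window (Mmp13, Mmp12, Mmp1b, Mmp3, Mmp1a, Mmp10 and Mmp7). Of the 27 other matched genes none did. Counted by single windows, as for the 2.84%, 7 of the 12 windows of the chromosome 9 group held it. The letters TATAAA, on the strand of the gene, stood in a window of 7 of the 10 neighbours and of 3 of the 27 others. Of all single windows 4.84% held these letters, while the counts before are of genes with any such window. Both searches give matches of letters, and binding was not measured.

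Levels differed widely between members. Mmp13, collagenase 3 and the main fibrillar collagenase of mice, had the highest mean of the set, 329 TPM over the 12 libraries (range 80.1 to 621). Timp2 followed at 290 TPM, Timp1 at 266 TPM, and Mmp14, the membrane-type protease that activates Mmp2 on the cell surface, at 169 TPM. Ranges overlapped between neighbours in this order. Mmp3 (stromelysin 1), Mmp12 (macrophage elastase), Timp3, Mmp2 (gelatinase A) and Mmp7 (matrilysin, a protease of epithelia) averaged 149, 76.7, 64.7, 57.4 and 49.3 TPM. The lead of the Adamts family was lower, with Adamtsl4 at 37.9 and Adamts1 at 35.8 TPM. Loxl2, Lox and Loxl1 averaged 27.0, 26.7 and 23.7 TPM, Loxl3 12.1 and Loxl4 7.78 TPM.

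**Figure D1:**
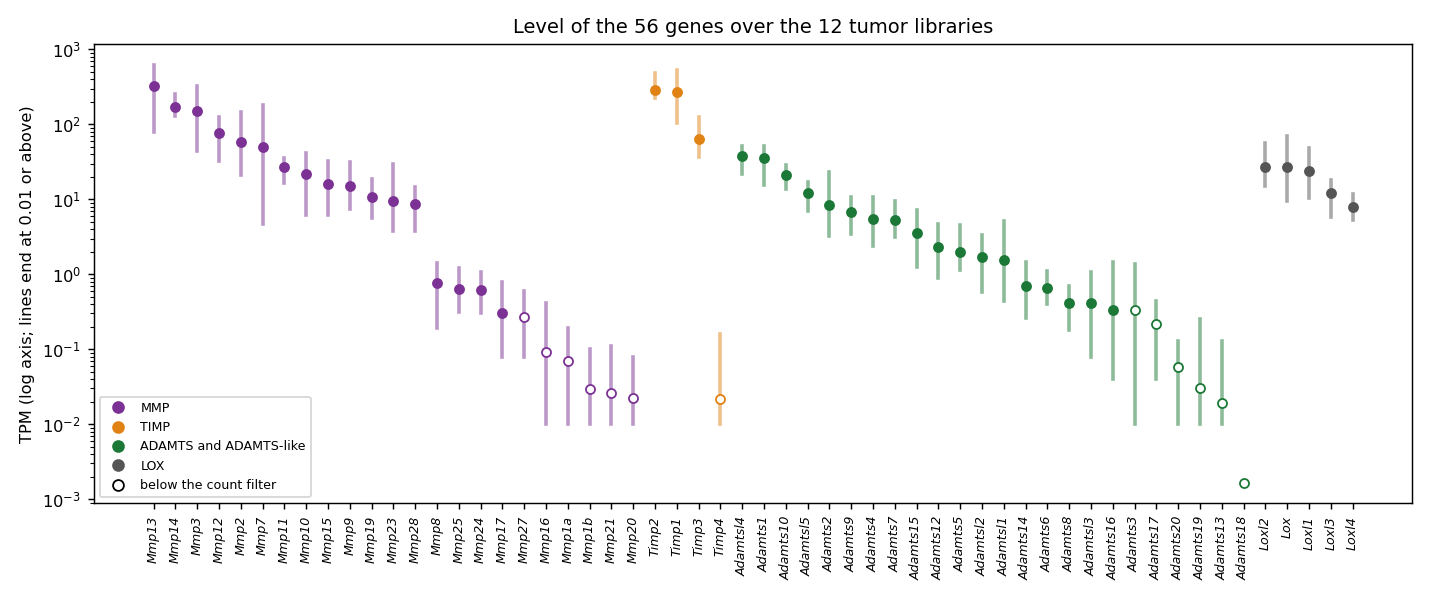
Mean TPM of each of the 56 genes over 12 libraries on a log axis (points), with lines from the lowest to the highest library. Filled points passed the count filter and open points did not. Mmp13, Timp2 and Timp1 stand highest at 329, 290 and 266 TPM.

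Summed over each family, the Mmp genes had 859 ± 218 TPM in Old tumor and 1025 ± 142 TPM in Young tumor libraries (SD, n = 6 each). The Timp genes summed to 653 ± 193 TPM in Old tumor and 588 ± 67.9 TPM in Young tumor libraries. Adamts and Adamtsl genes together reached 166 ± 19.0 TPM in Old tumor and 129 ± 19.3 TPM in Young tumor libraries, and Lox genes 115 ± 48.1 and 79.6 ± 12.5 TPM in Old and Young tumor libraries. The Lox sums of Old tumors ran from 51.9 TPM in Old tumor 4 to 199.5 TPM in Old tumor 1. Mmp13 alone made up 14.8% to 45.6% of the Mmp sum in Old tumor libraries and 31.2% to 56.2% in Young tumor libraries. Timp2 made up 28.8% to 60.6% of the Timp sum in Old and 38.4% to 51.6% in Young tumor libraries.

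The series title asks how an aged host bears on immune exclusion and metastasis, and the comparison made here is of Old with Young tumors of the same line. Counts of 43 of the 56 genes passed the filter. None of the 43 passed an adjusted p of 0.05 with edgeR's quasi-likelihood test and Benjamini-Hochberg adjustment over 16013 genes, of which 2.26% passed. An unadjusted p under 0.05 was reached by 9 of the 43 (20.9%), close to the 21.1% of all tested genes. The ages did not separate fully for any of them: in 0 of 43 did all Old tumor values lie on one side of all Young tumor values, against 2.97% of all tested genes. DESeq2 called 3 of 44 members (6.82%; Adamts12 and Adamts10 higher, Mmp13 lower in Old tumors), against 8.6% of all genes it tested (5.17% lower in Old tumors). On log2(TPM + 1), limma called 1 of 43 (2.33%), Adamts10, against 2.12% of all genes. The estimates leaned upward, with 33 of 43 above 0 and a median log2 fold change of 0.25, where 54.2% of all tested genes were above 0 with a median of 0.03. This lean was smaller without Old tumor 1, where 24 of 43 were above 0 and the median was 0.07. With a correction for transcript length 27 were above 0. The shares of all genes above 0 in those fits are not given here. By family, 10 of 17 Mmp, 2 of 3 Timp, 16 of 18 Adamts or Adamtsl and 5 of 5 Lox genes were above 0.

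**Figure D2:**
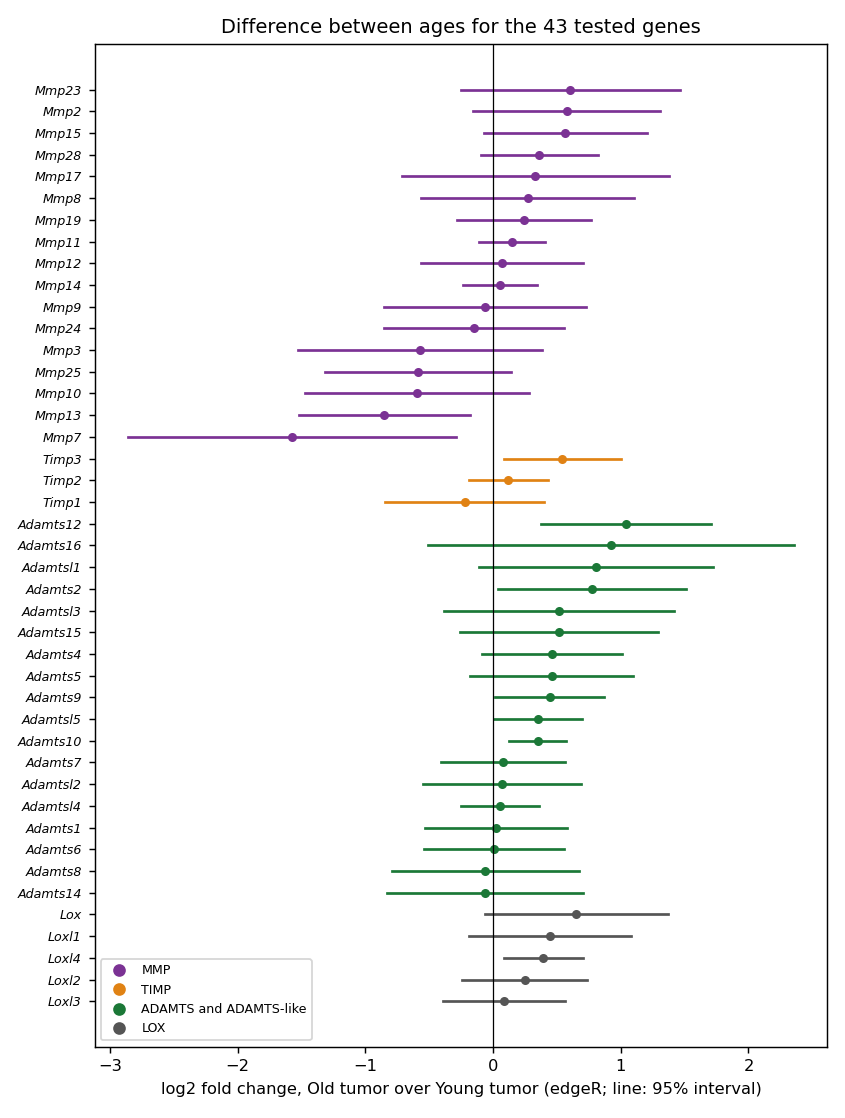
Log2 fold change of each of the 43 tested genes, Old tumor over Young tumor, from edgeR, with its 95% interval. Estimates run from -1.58 for Mmp7 to 1.04 for Adamts12, and no gene passed an adjusted p of 0.05.

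Among collagenases and gelatinases, Mmp13 stood out by its level (ENSMUSG00000050578, chromosome 9, 7272514 to 7283331, GRCm38). CPM, the count relative to the TMM-scaled library size with no length correction, is used from here on for differences. Old tumor libraries had 129, 404 and 619 CPM of Mmp13 as lowest, median and highest value, against 469.7, 683 and 1063 CPM in Young tumor libraries. All 6 Old tumor values lay below the Young median and 3 lay below every Young value, with Old tumor 4 the lowest. A log2 fold change of -0.85 (SE 0.31, 95% interval -1.52 to -0.18, edgeR adjusted p = 0.141) did not pass. Mmp2 ran from 44.7 to 268 CPM in Old tumor and from 43.5 to 114 CPM in Young tumor libraries (log2 fold change 0.58, SE 0.34). Mmp9, the gelatinase of neutrophils and macrophages, ran from 10.7 to 38.7 CPM in Old and from 9.97 to 36.4 CPM in Young tumors (-0.06, SE 0.37). Mmp8, the neutrophil collagenase, stayed at or below 2.12 CPM in every library (0.27, SE 0.39).

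Mmp7, Mmp3 and Mmp10, whose windows stand above beside that of Mmp13, likewise had estimates below 0 that did not pass. Mmp7 (chromosome 9, 7692090 to 7699585) had 2.76, 12.8 and 31.2 CPM in Old tumors as lowest, median and highest value, against 11.9, 39.0 and 119 CPM in Young tumors. All 6 Old values were below the Young median, yet the ranges overlapped, with Young tumor 1 and Young tumor 2 also low. The difference of -1.58 on the log2 scale (SE 0.60, 95% interval -2.86 to -0.29, edgeR adjusted p = 0.156) was the furthest from 0 of the 43, and it was -1.06 without Young tumor 4 and -1.90 without Old tumor 1. Mmp3 had 45.1, 86.4 and 272 CPM in Old tumors against 129, 157 and 381 CPM in Young tumors. Old tumor libraries split there: 4 lay below every Young value, and Old tumor 2 and Old tumor 5 lay above the Young median. The log2 fold change of Mmp3 was -0.57 (SE 0.45, edgeR adjusted p = 0.487). It was -0.28 without Young tumor 1 and -0.92 without Old tumor 2. Mmp10 (stromelysin 2), whose expected counts like those of Mmp3 were not whole numbers in any of the 12 libraries and so include reads shared with similar sequences, was at -0.59 (SE 0.41). Mmp12, between Mmp13 and Mmp3 on the chromosome, was at 0.07 (SE 0.30, 95% interval -0.57 to 0.71), and Mmp11 (stromelysin 3), on chromosome 10, at 0.15 (SE 0.12).

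Of the membrane-type proteases, Mmp14 had 196, 255 and 391 CPM in Old tumors against 234, 255 and 306 CPM in Young tumors. The medians matched, and the highest and the lowest library were both Old tumors. Its log2 fold change of 0.05 had a 95% interval of -0.23 to 0.34 (SE 0.13, edgeR adjusted p = 0.854), and the estimate was -0.10 without Old tumor 1. Mmp15 had 23.8, 44.7 and 85.3 CPM in Old tumors against 17.2, 35.1 and 46.7 CPM in Young tumors. Old tumor 4, the lowest library for many members, was here the highest. The log2 fold change of Mmp15 was 0.56 (SE 0.30, edgeR adjusted p = 0.295), and 0.35 without Old tumor 4. Mmp17, Mmp24 and Mmp25 averaged 0.31, 0.62 and 0.63 TPM, with estimates of 0.33 (SE 0.49), -0.15 (SE 0.33) and -0.59 (SE 0.34), and Mmp16 did not pass the filter. Of the members outside these classes, Mmp19, Mmp23 and Mmp28 were at 0.24 (SE 0.24), 0.61 (SE 0.40) and 0.36 (SE 0.21) on the log2 scale.

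The 3 tested inhibitors gave estimates on both sides of 0, and none passed. Timp3, which binds to the matrix and also inhibits ADAMTS proteases, lies on chromosome 10 (86300372 to 86349506). It had 121, 224 and 358 CPM in Old tumors against 121, 143 and 195 CPM in Young tumors. Old values exceeded every Young value in 4 libraries, while Old tumor 4 was level with the lowest Young tumor. The estimate for Timp3 was 0.54 (log2, SE 0.21, with an adjusted p of 0.169 in edgeR), and 0.34 without Old tumor 1. Expected counts of Timp3 were not whole in any library. Its exons overlap those of Syn3 on the other strand, and the strand setting of the counting is not given in the sources used here. Timp1, an inhibitor known to be induced in inflamed and fibrotic tissue, had 49.2, 102 and 249 CPM in Old tumors against 104, 132 and 180.4 CPM in Young tumors. The highest value was Old tumor 1, yet the other 5 Old libraries lay below the Young median. The estimate for Timp1 was -0.22 (log2, SE 0.29, with an adjusted p of 0.696 in edgeR), and without Old tumor 1 it was -0.60 (edgeR adjusted p = 0.076). Timp2 had 492, 624 and 1011 CPM in Old tumors against 547, 618 and 702 CPM in Young tumors, a log2 fold change of 0.12 (SE 0.14, 95% interval -0.19 to 0.43). Without Old tumor 5, its highest library, the estimate for Timp2 was -0.02. Timp4 had at most 13 counts in a library.

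**Figure D3:**
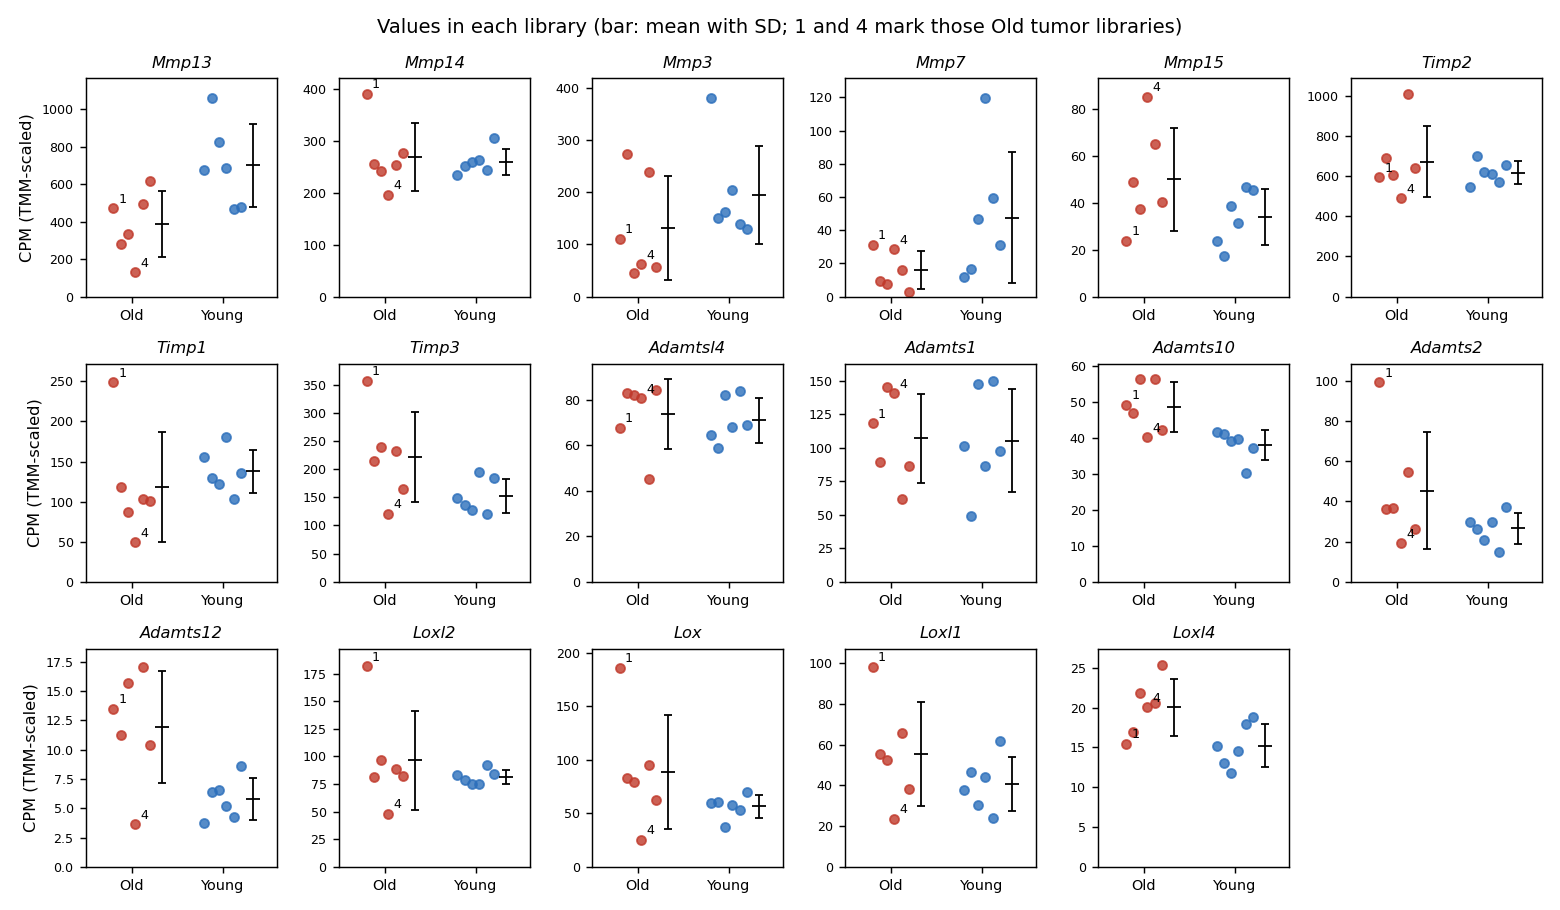
CPM in each Old tumor (red, left) and Young tumor library (blue, right) for the 17 genes described by the naming rule, with mean and SD (n = 6 each). Old tumor 1 and Old tumor 4 are marked 1 and 4. Old tumor 1 is highest for Timp3, Timp1, Mmp14, Adamts2, Lox, Loxl1 and Loxl2.

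The ADAMTS family held the smallest p-values of the set. Adamts12, a protease known to cleave cartilage oligomeric matrix protein, lies on chromosome 15 (ENSMUSG00000047497, 11064790 to 11349231). It had 3.63, 12.4 and 17.1 CPM in Old tumors against 3.72, 5.81 and 8.56 CPM in Young tumors. In 5 of 6 Old tumors it exceeded every Young value, and Old tumor 4 was below them all. Adamts12 had a log2 fold change of 1.04 (SE 0.31, 95% interval 0.37 to 1.71, edgeR adjusted p = 0.084). Without Old tumor 4 it was 1.23 and passed (edgeR adjusted p = 0.045), as the only member to do so, where 0.254% of all tested genes passed. Over the fits that leave out a single library the adjusted p ran from 0.045 to 0.167. Without both Old tumor 1 and Old tumor 4, a pair chosen after seeing the data, the estimate was 1.21 (edgeR adjusted p = 0.026). Adamts12 was again the only member to pass, where 3.58% of all tested genes passed. Old tumor 4 held its lowest value, so leaving that library out raises the estimate by construction. Adamts10, which binds fibrillin microfibrils (chromosome 17, 33524204 to 33553782), was tighter: 40.3, 48.1 and 56.6 CPM in Old tumors against 30.3, 39.5 and 41.6 CPM in Young tumors. All 6 Old values lay above the Young median and 5 above every Young value. Its log2 fold change of 0.35 (SE 0.10, 95% interval 0.13 to 0.57, edgeR adjusted p = 0.084) stayed between 0.29 and 0.40 with any single library left out.

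Adamts2, which removes the N-propeptide of procollagen, had 19.2, 36.5 and 99.4 CPM in Old tumors against 15, 28.2 and 37.3 CPM in Young tumors. The estimate was 0.78 (log2, SE 0.34, edgeR adjusted p = 0.215), and 0.36 without Old tumor 1, which held the highest value. Adamts9 (0.44, SE 0.20) and Adamtsl5 (0.35, SE 0.16) also had an unadjusted p under 0.05 and did not pass adjustment. Adamts1, a versican- and aggrecan-cleaving protease, had 61.9, 104 and 145 CPM in Old tumors against 49.2, 99.3 and 149.9 CPM in Young tumors (log2 fold change 0.02, SE 0.26, 95% interval -0.53 to 0.58). Adamtsl4, a fibrillin-binding protein without a protease domain, had 45.1, 81.4 and 84.5 CPM in Old tumors against 58.7, 68.5 and 83.7 CPM in Young tumors (0.06, SE 0.14). The ranges of both ages overlapped for these 2 most abundant members of the family, and with the length correction both estimates were below 0. The other proteoglycanases Adamts4, Adamts5 and Adamts15 were at 0.46 (SE 0.26), 0.46 (SE 0.30) and 0.52 (SE 0.36). Adamts16 and Adamtsl1, both below 2 TPM on average, were at 0.93 (SE 0.67) and 0.80 (SE 0.43), and Adamtsl3 at 0.52 (SE 0.42). Estimates of Adamts6, Adamts7, Adamts8, Adamts14 and Adamtsl2 lay between -0.06 and 0.08.

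All 5 lysyl oxidase genes had estimates above 0 with all 12 libraries, and none passed. Loxl4 (chromosome 19, 42593982 to 42612813) had 15.4, 20.3 and 25.4 CPM in Old tumors against 11.8, 14.9 and 18.9 CPM in Young tumors. All 6 Old values were above the Young median and 4 above every Young value. The estimate for Loxl4 was 0.39 (log2, SE 0.14, 95% interval 0.09 to 0.70, edgeR adjusted p = 0.139), and 0.31 to 0.46 with single libraries left out. Lox itself had 25.5, 81.2 and 186 CPM in Old tumors against 36.9, 58.9 and 70.3 CPM in Young tumors, so that Old tumors held both the highest and the lowest library. For Lox the estimate was 0.65 (log2, SE 0.33, edgeR adjusted p = 0.280), 0.27 without Old tumor 1 and 0.84 without Old tumor 4. Loxl1, the oxidase of elastic fibres, had 23.6, 54.0 and 98.3 CPM in Old tumors against 23.7, 40.9 and 61.9 CPM in Young tumors (0.45, SE 0.29). Without Old tumor 1 its estimate was 0.19. Loxl2, which acts on collagen IV of basement membranes, had 48.1, 85.4 and 181 CPM in Old tumors against 74.7, 81.0 and 91.8 CPM in Young tumors. Young values were tight, while Old tumor 1 was far above and Old tumor 4 far below them. The log2 fold change of Loxl2 was 0.25 (SE 0.23), and -0.05 without Old tumor 1. Expected counts of Loxl2 and Loxl3 were not whole in any library. Loxl3 was at 0.08 (SE 0.22).

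The other 13 genes were below the filter. Mmp1a, Mmp1b, Mmp16, Mmp20, Mmp21, Adamts13 and Adamts18 had at most 10 counts in any library, and Mmp27, Adamts17 and Adamts20 at most 15. Adamts3, a procollagen N-proteinase like Adamts2, had 69 counts in Old tumor 1 and at most 24 in the others. Timp4 and Adamts19 had their highest counts, 13 and 17, in Old tumor 1 as well, and at most 3 and 4 elsewhere. Without the filter all 13 were tested and none passed in edgeR (1 with an unadjusted p under 0.05), where 0.517% of 29230 genes passed.

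The same libraries were extreme for many members. Old tumor 1 was the highest library for 21 of the 43 tested genes (48.8%), against 14.0% of all 16013 tested genes. Old tumor 4 was the lowest for 15 of them (34.9%), against 11.6% of all tested genes. The mean log2 CPM of the 10 fibroblast markers (Col1a1, Col1a2, Col3a1, Dcn, Lum, Pdgfra, Pdgfrb, Fap, Postn, Thy1) was highest in Old tumor 1, at 8.28, and lowest in Old tumor 4, at 5.83, with the Young tumor libraries between 6.00 and 6.94. None of the 10 markers passed between ages, and all had estimates above 0, with a median log2 fold change of 0.62. Their part in the estimates of members between ages was not tested.

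Every gene of the table was then fitted with edgeR on this marker level in place of age, the 10 markers left out and p-values adjusted over 16003 genes. A positive slope passed for 17 of the 43 tested members (39.5%), against 4.74% of all genes, and a negative slope for none, against 0.225% of all genes. The 17 were Mmp2, Mmp14, Mmp19 and Mmp23, Timp1 and Timp3, Lox, Loxl1, Loxl2 and Loxl3, and 7 Adamts or Adamtsl genes (Adamts2, Adamts4, Adamts7, Adamts9, Adamts14, Adamts16 and Adamtsl1). Without Old tumor 1 the count was 7 of 43, against 0.45% of all genes: Mmp2, Mmp19, Lox, Loxl1, Adamts2, Adamts4 and Adamts9. Without both Old tumor 1 and Old tumor 4 it was 3, against 0.325% of all genes: Mmp2, Loxl1 and Adamts2. With age as a term in the model the count was 17, against 5.31% of all genes. Scaling and the make-up of each piece enter both the marker level and the members. The mural, macrophage, endothelial and mesothelial lists were also highest in Old tumor 1 and lowest in Old tumor 4. Members were not fitted on those lists, so whether the relation is particular to the fibroblast markers was not tested.

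Mmp2 had the highest r over the 12 libraries and the smallest edgeR p of the 43, with a slope of 1.09 log2 units per log2 unit (edgeR adjusted p = 7.02e-07). Its r was 0.983 and its rho 0.951 (permutation p = 1e-05 for both, the smallest these 100000 permutations can give). Without Old tumor 1 and Old tumor 4, the libraries farthest from the median, r was 0.964, and within Old and Young tumors it was 0.996 and 0.945 (n = 6 each). Loxl1 had a slope of 0.93 (edgeR adjusted p = 1.49e-05), r = 0.963 and rho = 0.972 (permutation p = 1e-05 for both), and r = 0.960 without those libraries. Timp3 had a slope of 0.70 (edgeR adjusted p = 0.000195), r = 0.920 and rho = 0.909 (permutation p = 2e-05 and 0.00013), and r = 0.837 without them, but its slope did not pass in edgeR without Old tumor 1, where those of Mmp2 and Loxl1 did. At both ages these 3 genes were high where the markers were high, with r of at least 0.769 within an age.

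Of the 17 genes, 12 kept an r above 0.5 without Old tumor 1 and Old tumor 4. Adamts7 and Adamts14 went from r of 0.801 and 0.777 over 12 libraries (rho 0.622 and 0.552) to 0.343 and 0.371. For Timp1, Mmp14 and Loxl2 the relation over all libraries weakened further without Old tumor 1 and Old tumor 4. Their r was 0.712, 0.804 and 0.832 over 12 libraries (permutation p = 0.0162, 0.00559 and 0.00474) but 0.04, 0.15 and 0.091 over the other 10. Their rho was 0.392, 0.42 and 0.545 (permutation p = 0.21, 0.176 and 0.0708). Within Old tumors r was 0.961, 0.915 and 0.973, and within Young tumors, which hold neither library, it was 0.738, 0.407 and -0.4 (n = 6 each).

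The chromosome 9 neighbours were not among the genes whose slope passed. Mmp13 had a slope of 0.08 (edgeR adjusted p = 0.986), r = 0.217 and rho = -0.084 (permutation p = 0.476 and 0.802), and r = -0.267 without the 2 libraries farthest out. Mmp3, Mmp10, Mmp12 and Mmp7 had r of 0.141, 0.135, -0.121 and -0.148 (permutation p = 0.668, 0.683, 0.71 and 0.648). Their rho values were 0.14, 0.105, -0.35 and -0.245 (permutation p = 0.665, 0.75, 0.265 and 0.442), and without the same libraries r was 0.1, 0.062, -0.72 and -0.376. The lysyl oxidases divided, with Lox, Loxl1, Loxl2 and Loxl3 among the 17 and Loxl4 outside (r = -0.052, rho = 0.084, permutation p = 0.876 and 0.802, and r = 0.286 without those libraries). Whether the slopes of members differ from each other was not tested.

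**Figure D4:**
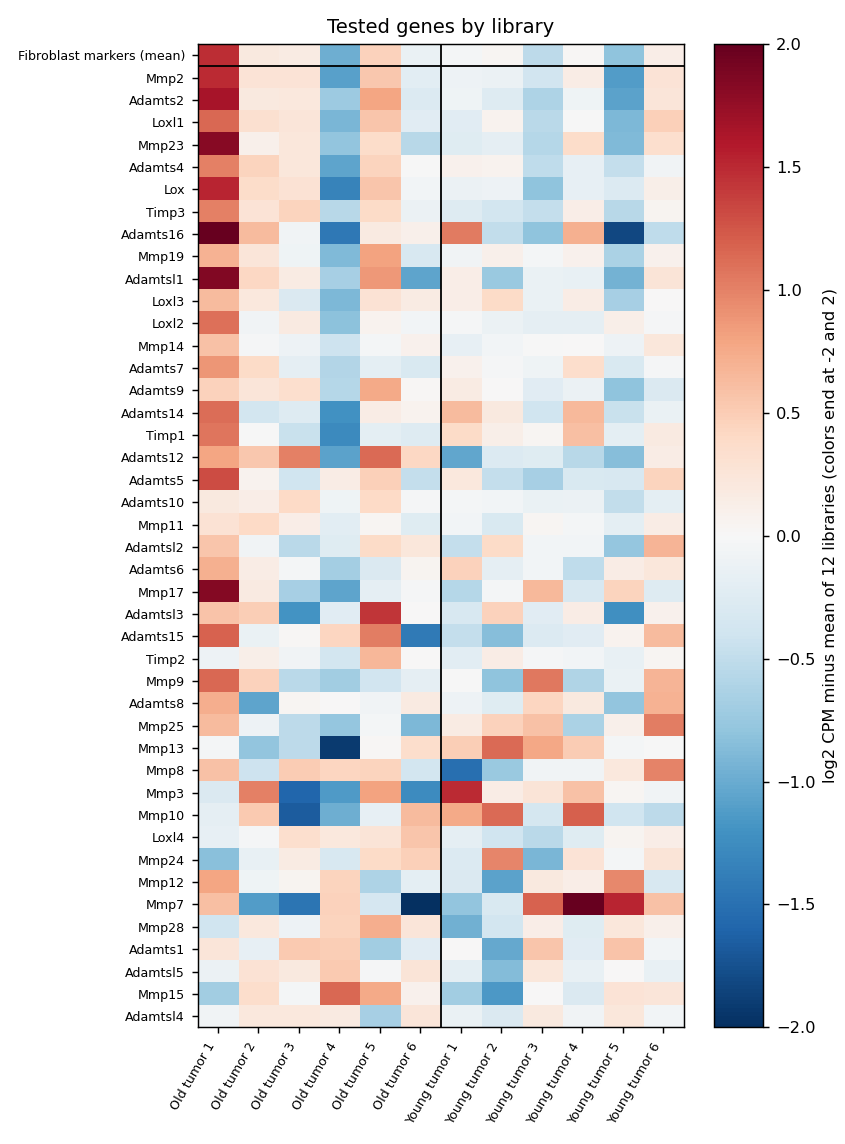
Log2 CPM of the 43 tested genes in each library minus the gene's mean over 12 libraries (colors end at -2 and 2), with the mean of 10 fibroblast markers in the top row. Genes are sorted by Pearson's r with that row, from Mmp2 at 0.983 to Adamtsl4 at -0.446. Old tumor 1 is high and Old tumor 4 low in the upper rows.

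**Figure D5:**
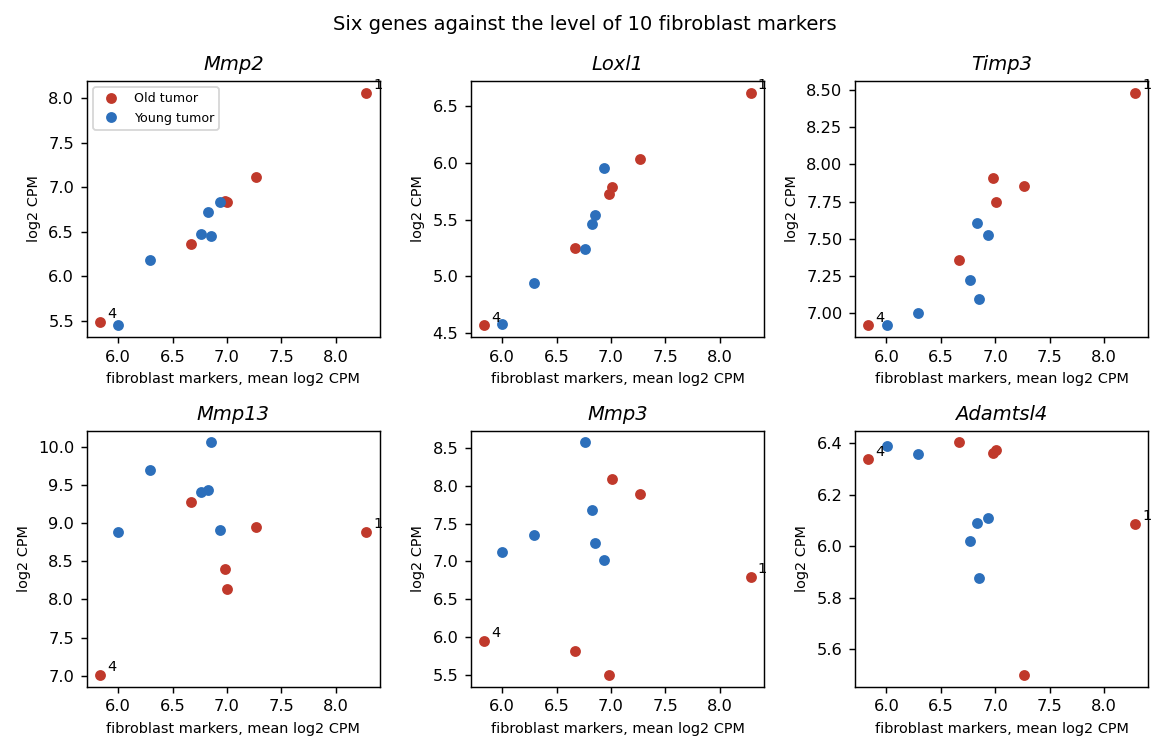
Log2 CPM of 6 genes against the mean log2 CPM of 10 fibroblast markers in 6 Old tumor (red) and 6 Young tumor libraries (blue), with Old tumor 1 and 4 marked. The slopes of Mmp2, Loxl1 and Timp3 passed over 12 libraries (r = 0.983, 0.963 and 0.920; that of Timp3 not without Old tumor 1), and the slopes of Mmp13, Mmp3 and Adamtsl4 did not pass (r = 0.217, 0.141 and -0.446).

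Other genes of matrix turnover gave a like picture. Of 67 listed genes 66 had a row under the listed symbol, 61 passed the filter and none passed with edgeR. An unadjusted p under 0.05 was reached by 10 of the 61 (16.4%), against 21.1% of all tested genes. DESeq2 called 1 of 62 (1.61%), Plaur, against 8.6% of all genes it tested, and limma on TPM called none. Estimates were above 0 for 43 of the 61 (70.5%), with a median log2 fold change of 0.14, where all tested genes had 54.2% above 0 and a median of 0.03. This lean too was smaller without Old tumor 1, where 50.8% of the 61 were above 0. The share of all genes above 0 in that fit is not given here. Plaur, the surface receptor of urokinase, had 123, 152 and 172 CPM in Old tumors against 166, 182 and 211 CPM in Young tumors, and all 6 Old values were below the Young median (log2 fold change -0.30, SE 0.09, edgeR adjusted p = 0.085). Among matrix substrates, a list that shares Col1a1, Col1a2, Col3a1 and Dcn with the fibroblast markers, 11 of 12 tested genes were above 0, with a median of 0.56, led by p by Col4a2, a basement membrane collagen (0.51, SE 0.18, edgeR adjusted p = 0.133). Of 8 tested genes of the plasminogen system 2 were above 0, and of 7 tested genes of the cathepsin list, which includes the inhibitor Cst3, 3 were. Ctsl, cathepsin L, had 382, 509 and 618 CPM in Old tumors against 513, 613 and 772 CPM in Young tumors (-0.32, SE 0.12, edgeR adjusted p = 0.150).

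Pcolce2, an enhancer of procollagen processing, was at -0.63 (SE 0.22, edgeR adjusted p = 0.126), with all 6 Old values below the Young median. Adam15, Pcsk5 and Prss23, the genes of smallest p among sheddases, activators and other proteases, were at 0.19 (SE 0.07), 0.66 (SE 0.31) and 0.71 (SE 0.38). Without Old tumor 1, 5 of the 61 (8.2%) passed, all lower in Old tumors: Pcolce2, Ctsz, Ctsl, Ctss and Plaur. In that fit 6.86% of all tested genes passed, and 4.17% passed as lower. Old tumor 1 holds the highest fibroblast and macrophage marker levels, at 8.28 and 6.11 on the mean log2 CPM scale, and their part in these counts was not tested.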

How the data were processed

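RNA of tumor pieces with an integrity number above 8 was poly(A)-selected and made into directional NEBNext libraries, per the labels' protocols. Per the submitters' processing notes, cutadapt 2.3, STAR 2.7.0d, RSEM 1.3.1 and mm10 were used. Sources used here name no annotation or strand setting. The authors deposited RSEM expected counts, which are estimated and were rounded to whole numbers here, and TPM, which were used for levels and as an alternative.

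Groups followed the labels. Ages were compared by a two-sided quasi-likelihood F test in edgeR 4.0.16 under R 4.3.3, after TMM scaling and filterByExpr, with Benjamini-Hochberg adjustment over 16013 genes. Fold changes are Old over Young, the SE is the log2 fold change over the square root of F, and log2 CPM uses a prior count of 2. No set test was run. The code was tested on simulated data.

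Genes, lists and tests were chosen with earlier results of these data known. The naming rule took members past the threshold and, in each of 4 families, the 3 of smallest p and the 3 of highest mean TPM. Values of all other members given here were chosen after they were seen. The fit on the level of fibroblast markers and the correlations (permutation of libraries) were added after seeing the data. Positions are from GENCODE M21 (GRCm38, the assembly of mm10), which held all 56 IDs. Exons of 16 of the 56 overlap those of another gene, and 11 had expected counts that were not whole, so reads of these can be shared.

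Alternatives were DESeq2 1.42.0, limma 3.58.1, other scalings and filters, a length correction, a replicate block and libraries left out.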

Additional observations from a re-analysis of the deposited data

Results flagged for a closer look

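In 34 groups of 6 values (17 named genes, 2 ages), 3 held a library whose gap to the nearest other, divided by the group's range, passed Dixon's critical value of 0.625. Chance gives about 1 in 20 groups where values follow a normal distribution, which was not tested for these CPM. Timp1 was at 249 CPM in Old tumor 1, with the next Old tumor at 118 CPM (ratio 0.656). Loxl2 was at 181 CPM in Old tumor 1, with the next at 96.7 CPM (ratio 0.636). Mmp3 was at 381 CPM in Young tumor 1, with the next Young tumor at 205 CPM (ratio 0.7). The fibroblast markers were highest in Old tumor 1 too, at 8.28 on the mean log2 CPM scale, and their part in the Timp1 and Loxl2 values was not tested.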

How the results depend on the processing

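No member passed under RLE or total-count scaling, either other filter, the replicate block or the effective length correction, where 0 of the 43 tested passed (56 without a filter, 40 with at least 1 CPM in 6 libraries). DESeq2 called 3 members and 1 other matrix gene, limma on log2(TPM + 1) and on log2(TPM + 0.1) called 1 member each, and an adjusted p of 0.1 called 2. The shares of all genes on log2(TPM + 0.1) and at an adjusted p of 0.1 are not given here. The counts of members at those settings therefore have no background to be read against. Of all genes DESeq2 called 1387 and edgeR 362, and edgeR called 151 with no filter, 1106 without Old tumor 1 and 41 without Old tumor 4. On those TPM scales the median of all genes was 0.13 and 0.15 in place of 0.03, so estimates there are to be read against that shift. Leaving out single libraries gave 0 to 1 members, 0 to 5 other matrix genes and 7 to 18 members that followed the fibroblast markers (7 without Old tumor 1). Leaving out both Old tumor 1 and 4, chosen after seeing the data, gave 1 member, Adamts12 (log2 fold change 1.21, edgeR adjusted p = 0.026; 3.58% of all genes passed), and 3 that followed the markers. With age in the model 17 members followed the markers, against 5.31% of all genes.

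Signs turned for 5 of the 17 named members. With the length correction Mmp14 was at -0.0044, Adamtsl4 at -0.0092 and Adamts1 at -0.11. Without both libraries Mmp14 was at -0.031 and Adamts1 at -0.16. With single libraries left out Adamts1 ran from -0.13 to 0.15, Mmp14 from -0.10 to 0.13, Timp2 from -0.0199 to 0.20 and Loxl2 from -0.0495 to 0.39. The cause was not tested.

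Replicate numbers carry no stated link between ages. Deviations of same-numbered libraries correlated at -0.23 to 0.139, with 2 of 6 pairs over 0.1, and with the replicate block 0 members and 0 other matrix genes passed, and 1 of all genes, against 362 without it. Depth limits the precision for members with few counts.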
